A study of Mus musculus with 6 samples.

Results

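Of interest here were 10 mouse genes whose circular RNAs (circRNAs) have been described in several mammals, and which were looked up in the circRNA table of epileptic and control cortex: Hipk1, Hipk2, Hipk3, Tulp4, Stau2, Elf2, Hivep2, Ankrd12, Zranb1 and Pms1. Every row whose listed host is the Ensembl gene of 1 of these symbols was taken, which gave 54 of the 11171 circRNAs of the table and 9 of the 10 hosts. Hipk1 had no row, and no row of the table overlapped its locus on chromosome 3. The most abundant hosts were Elf2 and Hipk3, whose leading circRNAs ranked 21 and 19 in the table. The most abundant circRNA of the Tulp4 locus ranked 2, but the table lists it without a host. Between the groups, the abundant circles of Hipk3, Elf2, Pms1, Tulp4 and Zranb1 did not differ beyond the spread between libraries. A rarely read Hipk2 circle passed the study's threshold with unadjusted p, but it was tested only through its TLE libraries.

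The libraries came from the cortex of male C57BL/6 mice (the strain as the labels give it, C57BL/6 J in the study's methods) at 6 weeks of age, with 3 Control and 3 TLE mice and as many libraries in each group. TLE mice (a model of temporal lobe epilepsy) received scopolamine methyl bromide and then pilocarpine to bring on Status Epilepticus (SE), and diazepam to end it. Control mice received saline in place of each of these agents, so that the drugs given and the seizures cannot be told apart between the groups. Cortex was taken 24 h after SE, and a library holds all cell types of the region together.

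A circRNA forms when the spliceosome joins the end of an exon, the donor, back to the start of the same or an upstream exon, the acceptor. The closed ring has no free ends and is degraded slowly, and such rings are known to be abundant in brain. Long introns on both sides of the circularized exons, often with sequences that pair with each other, are known to favour the reaction, and the exon that follows the first exon of a gene is a frequent starting point. Some circles carry the start codon of their host, and a few have been reported to bind microRNAs.

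The deposited unit, SRPBM (a spliced-read count scaled to the reads that the library mapped), rests on the reads across 1 back-spliced junction. It is not divided by length, since every circle has 1 junction, so levels of different circles can be set side by side. The value of 1 junction read was recovered from the steps between values and lay between 8.55 and 10.3 SRPBM. The libraries held between 32504 (TLE 1) and 56516 (TLE 3) junction reads, and the smallest value above 0 was 2 reads in each. A level of 3 reads, between 25.6 and 31.0 SRPBM, is called the floor below. Floors and the exact interval of a read ratio cover counting error only, whereas limma intervals take in the spread between libraries. A value of 0 is given as listed. The total SRPBM of TLE 3 was 1.37 times the mean of the other libraries, and the log2 fold changes of the leading circles are also given with every library rescaled to the same total. Rescaling moved the median log2 fold change of all tested circRNAs from 0.17 to 0.01. In bulk tissue, fewer cells of a type and less of a circRNA per cell cannot be told apart. Markers of the cell types were looked for among the hosts of the table: 4 of 6 neuronal genes (Rims2, Grin2b, Grm5, Dlgap1) host circRNAs, as does 1 of 3 astrocyte genes (Slc1a2, at no more than 34.6 SRPBM in any library), and no gene of the oligodendrocyte, microglia, endothelial or outside-brain lists does. A row needs back-splicing as well as expression, so an absent host says nothing about the cells.

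The junctions that the results turn on are shown first, because the 15 bases on each side of the join are what identifies a circle. Lower case gives the end of the last exon and capitals the start of the first exon, 5′ to 3′, as read from the GENCODE M21 transcripts of GRCm38 (mm10). The Hipk3 circle (chr2:104470749-104471847, minus strand) and the Hipk2 circle (chr6:38818230-38819313, minus strand) are each exon 2 of their host closed on itself. The Tulp4 circles (chr17:6137211-6139156 without a listed host, chr17:6137211-6185298 with Tulp4 listed, both plus strand) share their acceptor, and the Pms1 circles (chr1:53256629-53282092 and chr1:53256629-53290423, minus strand) share their donor. The Elf2 circles (chr3:51308050-51326035 and chr3:51308050-51326032, minus strand) differ by 3 bases at the acceptor.
Hipk3, mmu_circ_0005535: atctcgctactacagGTATGGCCTCACAAG
Hipk2, mmu_circ_0008718: atccagatactaccgGTATGGCCTCACATG
Tulp4 locus, mmu_circ_0003712: ggccacaacagtgagAGTTGTAAGAGTCCA
Tulp4, mmu_circ_0003714: cccgatgaccagcagAGTTGTAAGAGTCCA
Pms1, mmu_circ_0005309: tttgtacataataagCTACTCAGGTGCAAG
Pms1, mmu_circ_0005310: tttgtacataataagTGACTCAGTGAGCTG
Elf2, mmu_circ_0006767: agaattcagaaacagTAGTTCCAGAGAACC
Elf2, mmu_circ_0006766: agaattcagaaacagTTCCAGAGAACCTGC

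Hipk3 encodes a homeodomain-interacting protein kinase, a nuclear serine/threonine kinase, and its exon 2 circle is among the best-studied mammalian circRNAs. It was the only Hipk3 row, so that it held 100% of the host total. In Control replicates 1, 2 and 3 it was at 1213, 1004 and 991 SRPBM (1069 ± 125, SD, n = 3), and in TLE replicates 1, 2 and 3 at 1322, 1209.9 and 1713 SRPBM (1415 ± 264, SD, n = 3). TLE 2 lay below Control 1, so the groups overlapped by a small margin, and TLE 3 was the highest library. The log2 fold change on the log2(SRPBM + 17.1) scale was 0.39 (95% confidence interval -0.06 to 0.83, unadjusted p = 0.0827 and Benjamini-Hochberg adjusted p = 0.922 in limma). After rescaling it was 0.17. The Hipk3 circle held 829 junction reads in all, and its interval excludes a change of the study's threshold of 1.5 in either direction.

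Hipk2, a paralog of Hipk3 that also acts in the DNA damage response, gave the same kind of circle at a far lower level. It was listed at 17.1 SRPBM in Control 1 and at 0 in Control 2 and 3, and at 82.6, 35.1 and 34.6 SRPBM in TLE 1, 2 and 3. Every TLE library lay above every Control library and above the floor, and every Control library lay below it. These levels rest on 2 junction reads in Control and 16 in TLE, a ratio of 8.35 with an exact 95% counting interval from 1.96 to 74.8. In limma the Hipk2 circle reached a log2 fold change of 1.58 with a standard error of 0.64, past the study's threshold. It met the requirement of a value above 0 in 3 libraries only through its TLE libraries, so no p is given. The call was lost without TLE 1 (log2 fold change 1.27), without Control 2 or Control 3 (1.42 in each case) and with a pseudocount of 1 SRPBM. After rescaling the log2 fold change was 1.51. The Hipk2 circle ranked 2306 over all libraries and 7083 over the Control libraries alone.

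The Hipk2 and Hipk3 circles are alike in build. Each is a single exon, the second of a transcript with 15 (Hipk2) or 16 (Hipk3) exons, with 1084 and 1099 nucleotides, where single-exon circles of the table had a median of 727. Their flanking introns are long: 56485 and 70232 bases before and after the Hipk2 exon, and 22100 and 24113 bases around the Hipk3 exon, against medians of 10308 and 8691.5 bases over all circRNAs placed on exons. In a global alignment 762 of 1039 aligned positions (73.3%) were identical between the exons, and so were 14 of the first 15 and 11 of the last 15 bases of the circle. The start codon of Hipk3 begins at position 3 of its circle, whereas the Hipk2 circle holds no start codon of the transcript used. Of all placed circRNAs, 3.95% had a single exon.

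Elf2, an ETS family transcription factor, had 5 rows that summed to the highest host total of the set, rank 21 among 3506 host entries. Its leading circle, mmu_circ_0006767 (exons 2 to 4, 484 nucleotides), was at 1034, 1041 and 1369.6 SRPBM in Control (1148 ± 192, SD, n = 3) and at 1126, 1113 and 1705 in TLE (1315 ± 338, SD, n = 3). Control 3 and TLE 3 were the highest libraries, and the groups overlapped. The log2 fold change was 0.18 (95% confidence interval -0.30 to 0.65, adjusted p = 0.922 in limma), and its sign turned to -0.05 after rescaling and to -0.02 without TLE 3. The leading circle held 78.7% of the Elf2 total. A longer circle from the same acceptor, mmu_circ_0006765, had 256, 307 and 276 SRPBM in Control against 227, 254 and 346 in TLE, with 17.8% of the total and a log2 fold change of -0.04.

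The circle mmu_circ_0006766 differs from the leading Elf2 circle only in that its acceptor lies 3 bases further in, and the 3 bases between the acceptors are TAG (shown above). Its acceptor is no annotated exon start, and it was listed at 0, 46.5 and 51.7 SRPBM in the Control group, and at 93.0, 70.1 and 34.6 in TLE, 3.15% of the Elf2 total. The groups overlapped (log2 fold change 0.91, standard error 0.62, adjusted p = 0.922 in limma).

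Pms1, a MutL family protein of DNA mismatch repair, had 6 rows made from 2 acceptors and 3 donors. The leading circle, mmu_circ_0005309, was at 427, 614 and 559.9 SRPBM in Control (534 ± 95.9, SD, n = 3) and at 568, 666 and 874 in TLE (703 ± 156, SD, n = 3). TLE 1 lay between the Control libraries and TLE 3 was highest. The log2 fold change was 0.38 (95% confidence interval -0.13 to 0.89, unadjusted p = 0.135, adjusted p = 0.922, limma), and 0.16 after rescaling. It ranked 56 in the table and held 79.5% of the Pms1 total. The circle from the same donor to the other acceptor, mmu_circ_0005310, was at 111, 83.7 and 138 SRPBM in Control and 124, 70.1 and 104 in TLE, and 93.0% of all Pms1 signal used this donor.

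**Figure D1:**
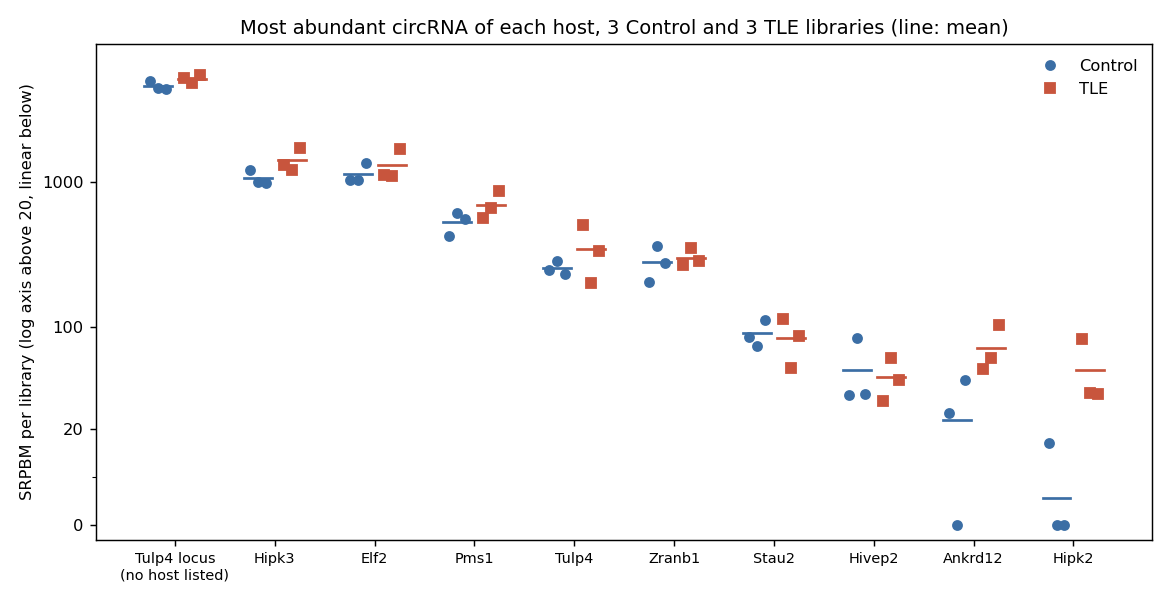
SRPBM in each library (log axis above 20, linear below) for the most abundant circRNA of each host and for the Tulp4 locus row without a listed host; circles are Control, squares TLE, and lines the mean of 3 libraries. Hipk2 and Ankrd12 at the right end are the hosts whose TLE libraries all lie above their Control libraries, and they are also among the least read.

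Tulp4 encodes a member of the tubby-like proteins. With Tulp4 as listed host there were 6 rows, led by mmu_circ_0003714 with 71.8% of their total and rank 156. It was at 248, 288 and 233 SRPBM in Control (256 ± 28.8, SD, n = 3) and at 506, 202 and 337 in TLE (348 ± 153, SD, n = 3). The TLE libraries scattered on both sides of the Control libraries, with the highest and the lowest value of all (log2 fold change 0.34, 95% confidence interval -0.32 to 0.99, adjusted p = 0.922 in limma). The value was 0.12 after rescaling, 0.03 without TLE 1 and 0.66 without TLE 2 (unadjusted p = 0.0426 in limma, under the fold threshold). The circle joins exon ends of different transcripts and so could not be placed on a single one. Of the summed Tulp4 signal, 94.2% used the acceptor at position 6137211.

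The most abundant circle of the locus is outside the rule on hosts. The row mmu_circ_0003712 has no listed host, but it lies within Tulp4 on the same strand, starts at the same acceptor as mmu_circ_0003714, and ends at 6139156, which is the end of exon 1 of the Tulp4 coding transcript. The acceptor belongs to the last exon of non-coding Tulp4 transcripts, and the 2 annotated exons overlap, so that the 1946 bases between the ends form no single annotated exon. The start codon of the coding transcript lies at position 1695 of this stretch. Its levels were 4965, 4499.8 and 4393 SRPBM in Control (4619 ± 304, SD, n = 3) and 5247, 4822 and 5529 in TLE (5199.6 ± 356, SD, n = 3). With 3272 junction reads it ranked 2 in the table and held 1.29% of its signal. Control 1 lay above TLE 2, and the log2 fold change was 0.17 (95% confidence interval -0.22 to 0.56, unadjusted p = 0.368, adjusted p = 0.922, limma), an interval narrower than that of any leading circle of the 9 hosts. With the 5 rows without a host counted, this circle made up 90.8% of the Tulp4 locus.

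A further Tulp4 circle was seen in TLE alone. The row mmu_circ_0003716 (chr17:6176829-6207057, exons 2 to 6 of the coding transcript, 774 nucleotides) had the value 0 in each Control library, whereas in TLE it was at 51.6, 17.5 and 43.3 SRPBM, or 5, 2 and 5 junction reads. TLE lay above Control in each library, though TLE 2 was itself below the floor, and on average TLE was at least 1.42-fold higher, taking the mean floor of the Control libraries for their level. It met the requirement of a value above 0 in 3 libraries only through the group where it is high, so its levels are a description and no p is given, and with any TLE library left out it was not tested.

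Zranb1 encodes a deubiquitinase and had 10 rows. Its leading circle, mmu_circ_0009126 (chr7:132948044-132950435, plus strand), was at 205, 363 and 276 SRPBM in Control (281 ± 78.9, SD, n = 3) and at 269, 351 and 286 in TLE (302 ± 43.4, SD, n = 3). All TLE values fell within the Control range (log2 fold change 0.12, 95% confidence interval -0.47 to 0.71, adjusted p = 0.933 in limma), and the sign turned to -0.09 after rescaling and to -0.07 without Control 1. It held 60.7% of the host total and ranked 162. Its donor is an annotated exon end, but its acceptor lies 124 bases from the nearest annotated exon start, and the acceptor was shared by 3 circles with 67.0% of the Zranb1 signal.

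Stau2 encodes a double-stranded RNA-binding protein that carries RNAs into neuronal dendrites, and it had the most rows, 16, with no clear leader. The highest, mmu_circ_0004955 (chr1:16389821-16509408, minus strand, exons 2 to 8, 975 nucleotides), held 21.3% of the host total, and in hosts with at least 4 circRNAs the median share of the leading circle was 47.8% (quartiles 36.7 and 62.7%). It was at 85.5, 74.4 and 112 SRPBM in Control (90.6 ± 19.3, SD, n = 3) and at 114, 52.6 and 86.5 in TLE (84.3 ± 30.6, SD, n = 3), with full overlap (log2 fold change -0.12, -0.30 after rescaling, adjusted p = 0.959 in limma, with the sign turned to 0.02 without Control 3 and to 0.13 without TLE 2). The 16 circles combined 6 acceptors with 6 donors, and all 16 could be placed on the same 14-exon transcript. The acceptor of exon 2 carried 57.9% of the signal in 5 circles.

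**Figure D2:**
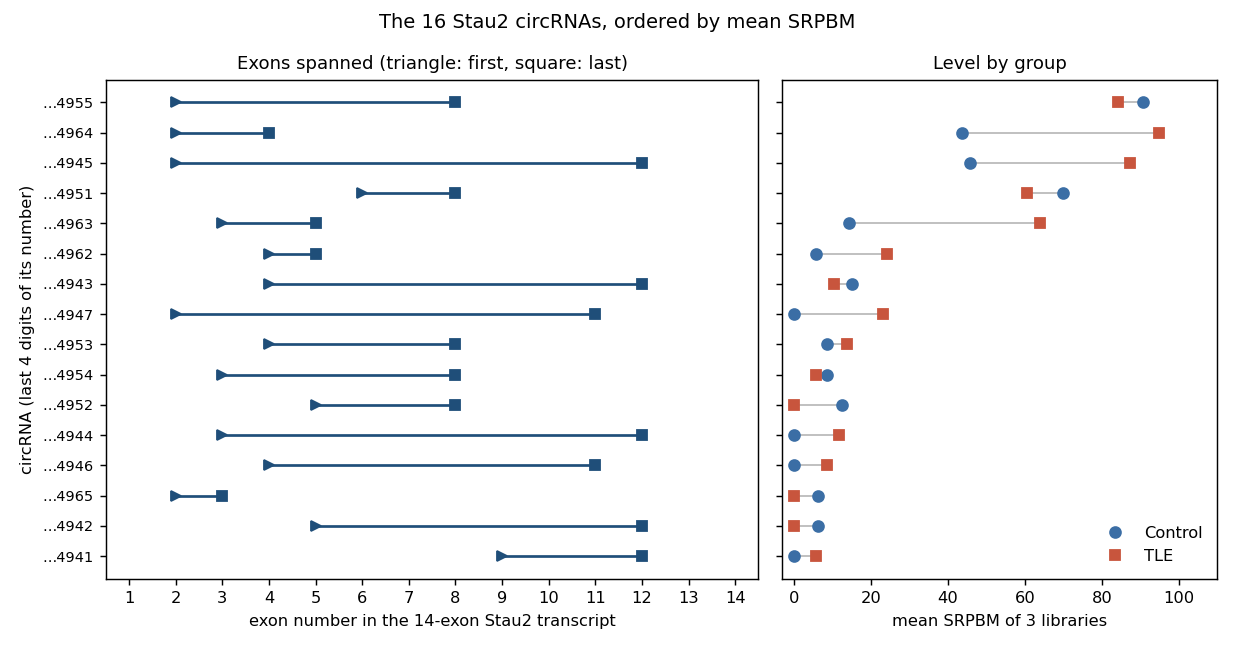
Left, the exons that each of the 16 Stau2 circRNAs spans in the 14-exon transcript, from first (triangle) to last (square), ordered by mean SRPBM; right, the mean SRPBM of the 3 Control (circles) and 3 TLE (squares) libraries. The circle of exons 3 to 5 (mmu_circ_0004963) moves from 14.3 SRPBM in Control to 64.0 in TLE, whereas the leading circle (mmu_circ_0004955) is at 90.6 and 84.3.

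In 3 Stau2 circles the values had all TLE libraries above all Control libraries. The circle of exons 2 to 4, mmu_circ_0004964, was at 51.3, 27.9 and 51.7 SRPBM in Control and 145, 78.9 and 60.6 in TLE (log2 fold change 0.84, standard error 0.46, unadjusted p = 0.0879 in limma). The circle of exons 3 to 5, mmu_circ_0004963, was at 17.1, 0 and 25.8 SRPBM in Control and 62.0, 26.3 and 104 in TLE (log2 fold change 1.35, standard error 0.63, unadjusted p = 0.0475, adjusted p = 0.922, limma). Every Control library of this circle was at 3 reads or fewer, and among the alternatives run it passed the study's threshold only when Control 3 (1.63) or TLE 2 (1.74) was left out. The circle of exons 4 and 5, mmu_circ_0004962, stayed at or below 3 reads in every library of both groups, so no fold is given. After rescaling, mmu_circ_0004962 was still without overlap and the other two overlapped.

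Hivep2, a zinc finger transcription factor, had 5 rows led by mmu_circ_0000123 (chr10:14004201-14066684, plus strand, exons 2 and 3, 177 nucleotides). It was at 34.2, 83.7 and 34.5 SRPBM in Control (50.8 ± 28.5, SD, n = 3) and at 31.0, 61.4 and 43.3 in TLE (45.2 ± 15.3, SD, n = 3), with Control 2 the highest library (log2 fold change -0.08, -0.25 after rescaling, adjusted p = 0.986 in limma, and the sign turned to 0.25 without Control 2 and to 0.10 without TLE 1). It held 73.4% of the host total. The other 4 Hivep2 rows were above 0 in Control libraries alone, at 2 to 4 reads each over the 3 libraries, and were listed at 0 in TLE.

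Ankrd12, an ankyrin repeat protein that binds transcriptional cofactors, was the only host whose second circle held more than 20% of the total. Both circles start at the acceptor of exon 2, which carried 94.4% of the signal, and both end outside annotated exon ends, 2504 and 11600 bases from the nearest. The leading circle, mmu_circ_0003765 (chr17:66020385-66053091, minus strand), was at 25.6, 0 and 43.1 SRPBM in Control (22.9 ± 21.7, SD, n = 3) and at 51.6, 61.4 and 104 in TLE (72.3 ± 27.8, SD, n = 3). The second, mmu_circ_0003764 (chr17:66011289-66053091), was at 59.8, 27.9 and 86.1 SRPBM in Control (57.9 ± 29.2, SD, n = 3) and at 0, 17.5 and 51.9 in TLE (23.2 ± 26.4, SD, n = 3). The leading circle did not overlap between the groups, and the second overlapped only between TLE 3 and Control 2.

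In limma the leading Ankrd12 circle had a log2 fold change of 1.30 (standard error 0.59, unadjusted p = 0.0429, adjusted p = 0.881), below the study's threshold of 1.5, and the second one -1.04 (standard error 0.64, unadjusted p = 0.122). These rest on 8 reads in Control and 24 in TLE for the leading circle, and on 20 and 8 for the second. Over the Control libraries alone the second circle led, with rank 1126 against 2634. After rescaling the leading circle had 1.17. Leaving out Control 3 took it past the threshold (1.68), and leaving out TLE 3 took the second one past it (-1.54).

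**Figure D3:**
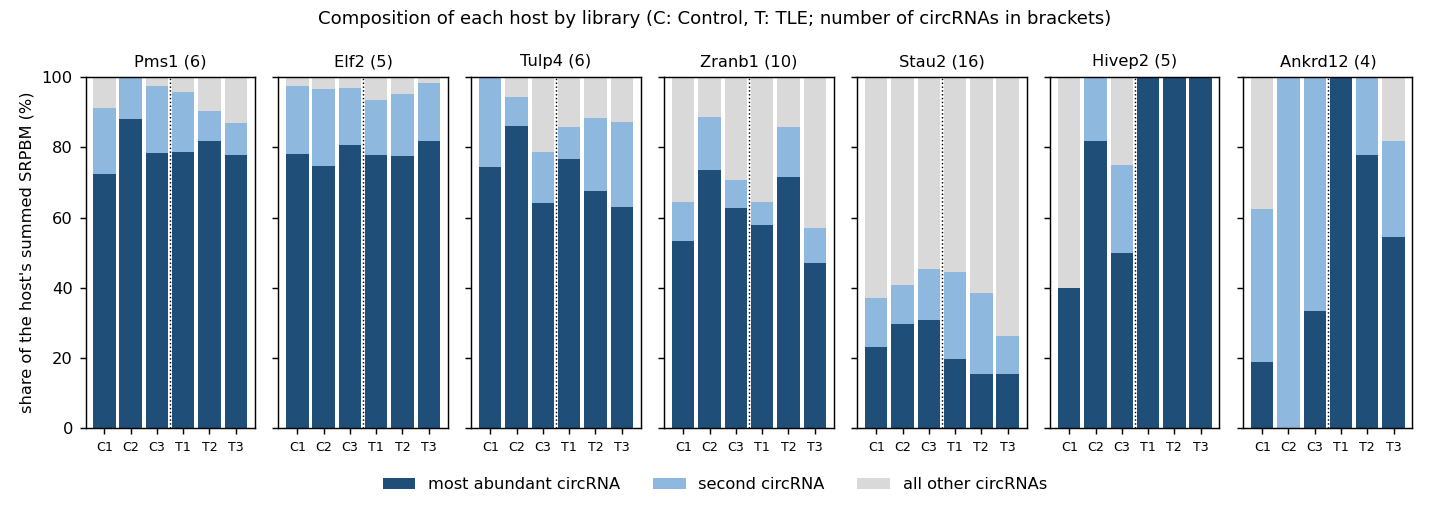
Share (%) of each host's summed SRPBM in its most abundant circRNA (dark), the second (light blue) and all others (grey), by library; the number of circRNAs is in brackets. Pms1 and Elf2 keep their make-up across the 6 libraries, while the dark part of Ankrd12 is between 0 and 33.3% in Control and between 54.5 and 100% in TLE.

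The share of the leading circle within its host is a ratio inside each library and does not depend on the scaling. For Elf2 it was 77.8 ± 3.03% in Control and 79.0 ± 2.37% in TLE (SD, n = 3; two-sided exact permutation test, p = 0.7), and for Pms1 79.6 ± 7.85% and 79.3 ± 2.12% (exact permutation test, p = 0.9). Neither share of these abundant hosts moved beyond its spread. For Tulp4 the shares were 74.9 ± 10.9% and 69.0 ± 6.93% (exact permutation test, p = 0.6), and for Zranb1 63.2 ± 10.1% and 58.8 ± 12.2% (exact permutation test, p = 0.7).

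In Stau2, Ankrd12 and Hivep2 the shares of the leading circle did not overlap. How often this occurs over all hosts was not computed. The leading Stau2 circle had 23.3, 29.6 and 31.0% in Control and 19.6, 15.4 and 15.4% in TLE. The leading Ankrd12 circle had 18.8, 0 and 33.3% in Control and 100, 77.8 and 54.5% in TLE, and the leading Hivep2 circle 40, 81.8 and 50.0% in Control and 100% in each TLE library. Each of these 3 reached p = 0.1 in the two-sided exact permutation test, and a design of 3 against 3 can go no lower. With the rows without a listed host at the Hivep2 locus counted, its leading circle had 33.3, 60 and 50.0% in Control and 100, 77.8 and 33.3% in TLE, and the groups overlapped. A Hivep2 or Ankrd12 share rests on as few as 3 junction reads in a library (TLE 1 for Hivep2 and Control 2 for Ankrd12).

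Over all members, 31 of 54 circRNAs (57.4%) had a value above 0 in at least 3 libraries and were tested, against 38.2% of the table. The study's threshold asks for a log2 fold change of 1.5 or more in size with unadjusted p under 0.05. It was met by 2 member circRNAs, both higher in TLE, and by 1.57% of the 4271 circRNAs tested, 1.26% higher and 0.304% lower in TLE. Of these 2, the Hipk2 circle was above 0 in Control 1 alone among the Control libraries, and mmu_circ_0003716 of Tulp4 was at 0 in all of them. Both were tested only because they were above 0 in every TLE library, and neither call is evidence of a difference. Among all circRNAs tested 2.72% were at 0 throughout a group. After Benjamini-Hochberg adjustment in limma 0 members and 0 of all circRNAs tested had an adjusted p under 0.05. An unadjusted p under 0.05 in limma was found for 4 members, all higher in TLE, and for 5.2% of all tested, 4.12% being higher in TLE. These 4 include the Hipk2 circle and mmu_circ_0003716 of Tulp4, so the count rests in part on circles tested only through TLE. In 6 tested members the groups did not overlap, all with TLE above Control. No overlap was seen for 11.1% of all tested circRNAs, 8.94% with TLE above and 2.11% with TLE below. The 6 are the Hipk2 circle, mmu_circ_0003716 of Tulp4, the leading Ankrd12 circle and the 3 Stau2 circles, all of them with 45 junction reads or fewer. After rescaling 5 did not overlap, 4 with TLE above and mmu_circ_0006765 of Elf2 with TLE below. The share over all tested circRNAs was not taken on that scale, so this count has no baseline. The median log2 fold change of the tested members was 0.38 and that of all tested circRNAs 0.17, and 21 of the 31 members lay above 0 (67.7%, against 60.5% of all tested).

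**Figure D4:**
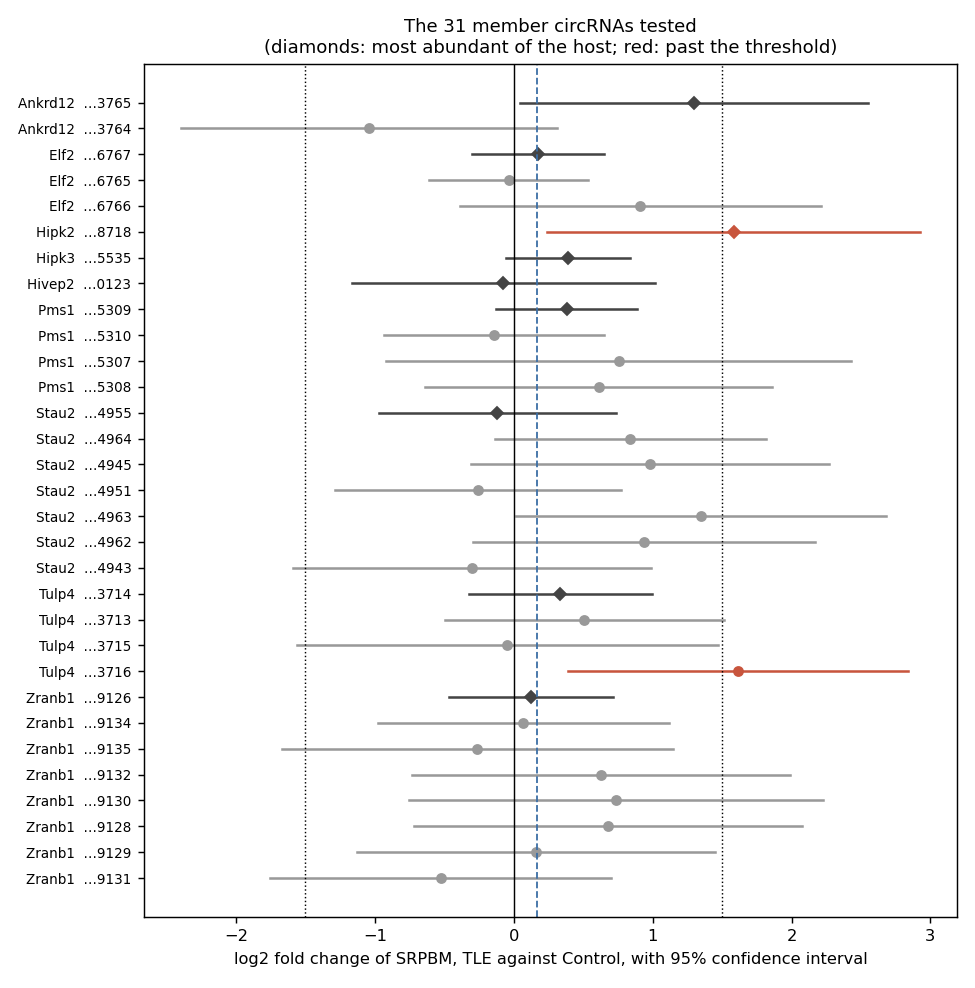
Log2 fold change of SRPBM (TLE against Control) with its 95% confidence interval for the 31 member circRNAs tested; diamonds are the most abundant circRNA of a host, red marks those past the threshold, dotted lines are at -1.5 and 1.5, and the dashed line is the median of all 4271 tested. The narrow intervals of Hipk3, Elf2 and Pms1 lie inside the dotted lines, whereas those of the 2 circles in red are wide. Both red circles, of Hipk2 and of Tulp4 (mmu_circ_0003716), were tested only through their TLE libraries, so their intervals are no evidence of a difference. The Tulp4 one is listed at 0 in all Control libraries.

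With the circRNAs of each host summed, 8 of the 9 hosts had a log2 fold change above 0. The median over all 2179 hosts tested was 0.20, so most hosts tested lay above 0 as well. Hipk2 was the only host past the threshold, with the value of its single circle, and it too was tested only through its TLE libraries. Of the hosts tested 1.97% passed and 6.2% had an unadjusted p under 0.05. The Pms1 total was at 589.7, 697 and 715 SRPBM in the Control group, and at 723, 815 and 1125 in TLE, and the Hivep2 total at 85.5, 102 and 68.9 in Control and at 31.0, 61.4 and 43.3 in TLE. These 2 and Hipk2 were the 3 hosts whose totals did not overlap, where 12.7% of the hosts tested do not, 10.8% with TLE above. With the rows without a listed host at its locus counted, the Hivep2 total was at 103, 139 and 68.9 SRPBM in Control and 31.0, 78.9 and 129.8 in TLE, which overlap (log2 fold change -0.42). With every library rescaled to the same total SRPBM, TLE 2 fell below Control 2 in Pms1, so its totals overlapped. Neither the Pms1 total (log2 fold change 0.38, adjusted p = 0.852) nor the Hivep2 total (-0.74, adjusted p = 0.858) passed in limma. The Stau2 total had 0.56 (95% confidence interval -0.05 to 1.16) and overlapped, and the totals of Tulp4, Zranb1, Elf2 and Ankrd12 had 0.45, 0.24, 0.15 and 0.15, with adjusted p between 0.852 and 0.972 in limma. The sign of the Elf2 and Ankrd12 totals turned after rescaling, to -0.07 and -0.05.

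**Figure D5:**
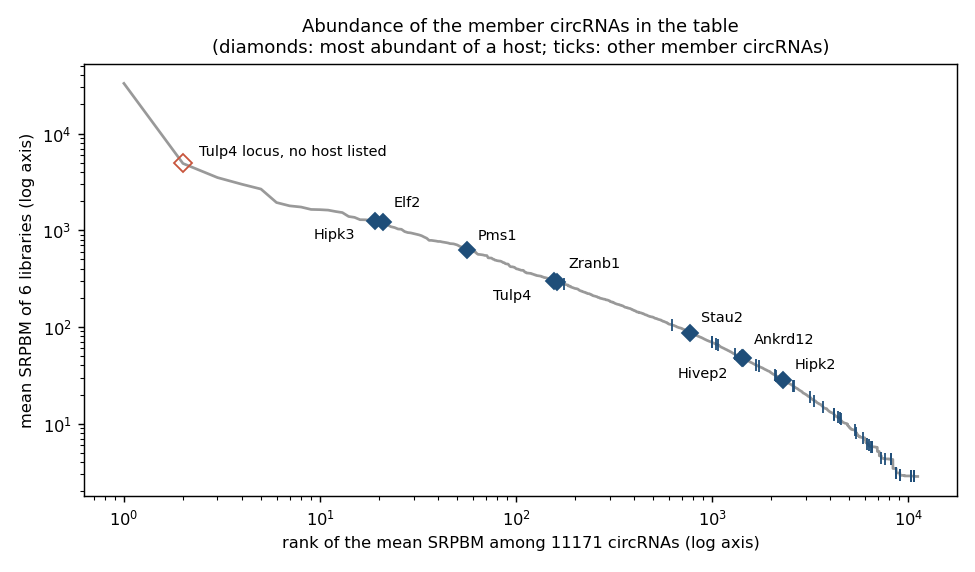
Mean SRPBM of 6 libraries against rank for all 11171 circRNAs (grey line, both axes logarithmic), with the leading circRNA of each host as a filled diamond, other member circRNAs as ticks and the Tulp4 locus row without a listed host as an open diamond. The leading circles fall into an upper set from rank 19 to 162 and a lower set from rank 774 to 2306.

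By abundance, the leading circles of Hipk3 (mean 1242 SRPBM) and Elf2 (1231) came first and did not differ beyond their spread, followed by Pms1 (618), Tulp4 (302), Zranb1 (291), Stau2 (87.4), Hivep2 (48.0), Ankrd12 (47.6) and Hipk2 (28.2). Tulp4 and Zranb1, as well as Hivep2 and Ankrd12, were also within the spread of each other. Of the 9, 5 ranked in the top 200. All member circRNAs together held between 1.17 and 1.60% of the SRPBM of a library. Summed over the libraries, the median circRNA held 9 junction reads among the members and 5 in the table as a whole. In 1 library alone were found 31.5% of the members and 45.4% of all circRNAs.

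In build, 41 of the 54 members could be placed with both ends on exons of a single transcript, and 23 of these (56.1%) began at exon 2, where 29.9% of the 9216 circRNAs placed in the table did. The start codon of the host lay within 23 of the 41 (56.1%), against 15.2% of the placed circRNAs on coding transcripts. Members of a host share their ends, so these counts are not independent. All 6 leading circles that could be placed began at exon 2, and 4 of them (Hipk3, Elf2, Pms1 and Stau2) held the start codon. The median member had 4 exons and 708 nucleotides, with introns of 16071 and 15009 bases before and after it, against 4 exons, 608 nucleotides and introns of 10308 and 8691.5 bases in the table. The leading Elf2 circle lies between introns of 14378 and 41183 bases, and the leading Pms1 circle (exons 2 to 5, 602 nucleotides) between 14793 and 40281 bases.

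The circles were searched on their own strand, across the junction as well, for the 7 letters that pair with positions 2 to 8 of brain microRNAs: GTCTTCC (miR-7a-5p), ACCAAAG (miR-9-5p) and TGGTGCT (miR-29a-3p). None of the leading circles that could be placed held a match. The miR-29a-3p letters occurred once each in 2 Hivep2 and 2 Zranb1 circles, the miR-7a-5p letters once in an Ankrd12 circle, and the miR-9-5p letters in no member. Of circRNAs of similar length, 46.3% held the miR-29a-3p letters for the 2 Hivep2 circles, 8.60% and 14.9% for the 2 Zranb1 circles, and 39.0% the miR-7a-5p letters for the Ankrd12 circle. Over all placed circRNAs the shares were 6.75% (miR-7a-5p), 12% (miR-9-5p) and 8.29% (miR-29a-3p).

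Paralogs of the hosts gave circles of low abundance. Of 14 looked up, 6 had a row (Stau1, Elf4, Hivep1, Hivep3, Ankrd11 and Zranb3), with 14 circRNAs, 3 of them tested and 0 past the threshold. The highest was a Hivep3 circle at rank 1656, listed at 17.1, 37.2 and 25.8 SRPBM in Control and 51.6, 35.1 and 77.9 in TLE. The Stau1 circle was at 42.7, 18.6 and 17.2 SRPBM in the Control group, and at 0 in each TLE library, on 9 reads, so that it was tested only through the group where it is high and no p is given.

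Of 16 other hosts of circles known from several mammals, Rims1 and Smarca5 had no row that listed them alone. Rows with several or no listed hosts were not searched. The other 14 hosts had 85 circRNAs, of which 51 were tested and 1 (of Rims2) passed the threshold. Of their leading circles 7 ranked in the top 200, those of Ankib1 (rank 6), Zfp609 (14), Rims2 (16), Cdyl (32), Homer1 (65), Slc8a1 (184) and Rtn4 (185). The leading circle of Homer1, a postsynaptic scaffold protein, was at 427, 316 and 465 SRPBM in Control and 899, 526 and 744 in TLE (log2 fold change 0.80, standard error 0.26, limma). That of Cdyl, a chromatin reader, was at 735, 660.1 and 655 SRPBM in Control and 1281, 1087 and 960.5 in TLE (log2 fold change 0.68, standard error 0.21, limma). Neither overlapped between the groups as deposited, and both had an adjusted p of 0.838 in limma. With every library rescaled to the same total SRPBM, TLE 2 of Homer1 fell just below Control 3 and TLE 3 of Cdyl below Control 1, so both overlapped. Of the 13 leading circles tested in this list, 5 did not overlap as deposited, all with TLE above (also those of Fbxw7, Rims2 and Csnk1g3), where 8.94% of all tested circRNAs have TLE above. After the same rescaling those of Fbxw7 and Csnk1g3 overlapped as well, and of these 5 only that of Rims2 stayed apart. The share over all tested circRNAs was not taken on that scale.

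For likeness across libraries, the log2 values of the Hipk3 circle were set against 662 circRNAs of other hosts with a mean of at least 100 SRPBM. The nearest were the Tulp4 locus circle mmu_circ_0003712 (Pearson correlation 0.97), a Tcf20 circle (mmu_circ_0003012, 0.96) and a Qrich1 circle (mmu_circ_0010228, 0.96) over the 6 libraries. All of these points share the depth of their library, and no p is given.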

How the data were processed

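Total RNA of 6 cortices was depleted of ribosomal RNA and sequenced as directional paired-end libraries. The authors aligned reads with BWA-MEM, found circRNAs with CIRI and deposited their SRPBM, a signal (junction reads scaled to the mapped reads), for all libraries in 1 table, on mm10. The authors' processing notes also name DESeq2. The deposited values are not counts, so no count test was used.

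Groups were taken from the sample titles, with 3 libraries each and 0 columns left unused. SRPBM were compared as log2(SRPBM + 17.1) with limma 3.58.1 (R 4.3.3; lmFit and eBayes with a trend) over the 4271 circRNAs above 0 in at least 3 libraries, and over the 2179 hosts with summed values, with Benjamini-Hochberg adjustment over all tested. The pseudocount is 2 reads of a Control library. A call needed an absolute log2 fold change of at least 1.5 and unadjusted p under 0.05. For shares, the exact permutation test was two-sided (scipy 1.17.1). The scripts were tested on simulated data. Ranks are by the mean of 6 libraries. Circles were placed on GENCODE M21 transcripts of GRCm38 where both ends met exon ends of 1 transcript of the listed host.

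Named were the leading circRNA of each host, any member past the threshold or without overlap, and the second circRNA of a host with at least 20% of its total. The Elf2 circles mmu_circ_0006765 and mmu_circ_0006766, the Pms1 circle mmu_circ_0005310 and the row mmu_circ_0003712 were named after their values were seen. Related hosts and paralogs came from written lists. For these and for the marker genes, only rows with the gene as their single listed host were counted. The members and lists were chosen with earlier results of these data known. Same-numbered Control and TLE libraries did not deviate together (correlations from 0.0103 to 0.0192), so the numbers were not used as pairs. Alternatives were the pseudocount, the filter, the scaling, the trend, the fold threshold, a replicate block, rows without a host and each library left out.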

Additional observations from a re-analysis of the deposited data

How the results depend on the processing

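The count of 2 member circRNAs past the threshold fell to 1 with a pseudocount of 1 SRPBM and rose to 4 with a log2 fold change of 1 or with no fold threshold; with single libraries left out it ran from 0 (without TLE 1) to 3 (without Control 3), with 1 without Control 2. The count of hosts ran from 0 (without Control 2, Control 3 or TLE 1) to 1. The count of leading circles past it was 1, 0 with a pseudocount of 1 SRPBM, and 0 to 1 with libraries left out. Rescaling to the same total turned the leading circles of Elf2 (-0.048) and Zranb1 (-0.092) and the totals of Elf2 (-0.071) and Ankrd12 (-0.049). With libraries left out, the log2 fold change of the leading circle ran from -0.024 to 0.31 in Elf2, -0.26 to 0.25 in Hivep2, -0.33 to 0.13 in Stau2, -0.074 to 0.31 in Zranb1 and, with no change of sign, 0.03 to 0.66 in Tulp4, and that of the total from -0.021 to 0.26 in Elf2 and -0.43 to 0.49 in Ankrd12. The cause was not tested. With the replicate block the counts stayed at 2 circRNAs and 1 host, and it changed no other call. Over all circRNAs 67 passed, against 168 with a pseudocount of 8.55 SRPBM, 130 with 1 SRPBM, 82 to 110 with a library left out and 196 with a log2 fold change of 1. An adjusted p under 0.05 was reached by 0 circRNAs in limma, against 9 with no filter and 4 without TLE 1, none of them a member (smallest adjusted p of a member 0.267 over the alternatives). Depth limits Hipk2, Hivep2, Ankrd12 and most Stau2 circles, which hold a few reads per library.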
